A study of Mus musculus with 4 samples.

Results

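Collagen chain genes were examined as a family in the mouse heart. The members are the rows of the deposited table whose symbol reads Col, a number, a and a number, which gave 44 of 43346 genes. The hearts came from C57BL/6 mice of 6 weeks of age, 2 wild-type (WT) and 2 lacking PRMT1 specifically in cardiomyocytes (PRMT1-cKO). No other allele, agent or Cre driver is named in the labels, and the sources used here do not say whether the WT controls carry the conditional allele or Cre. PRMT1 is an enzyme that places methyl groups on arginine residues of proteins, and the study set out to examine mRNA levels and splicing in these hearts.

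Collagens are built from 3 chains wound into a triple helix, and each chain has its own gene. Fibrillar collagens (types I, III, V and XI among them) assemble into the cable-like fibrils that give heart tissue its tensile strength, and in the heart fibroblasts are their main source. Type IV chains form the sheet-like network of basement membranes around cardiomyocytes and vessels, type VI makes beaded filaments, FACIT collagens sit on fibril surfaces, and transmembrane collagens are anchored in the cell membrane. PRMT1 was deleted in cardiomyocytes, whereas much of the collagen of the heart is made by other cells.

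Gene reads are the reads that the table assigns to a gene. They equalled exon reads plus intron reads for each of the 43346 genes, and of 2605955 exon reads 29 did not cross an exon junction. An exon read is therefore almost always a read of spliced RNA. Exon reads that lie inside a single exon are nearly absent. Of 2588 genes with 1 exon, 0 had an exon read, so every read of such a gene is counted as an intron read. Intron reads keep their deposited name here and are not taken as a measure of unspliced RNA. Libraries held from 18291730 to 25509854 gene reads and from 544891 to 764806 exon reads. The mitochondrial ribosomal RNA gene mt-Rnr2 took 64.9 and 65.8% of the gene reads of the WT hearts but 52.8 and 51.2% of those of the PRMT1-cKO hearts. CPM values are counts scaled to a common library total, here with TMM factors, and fold changes on that scale are relative to most other genes of a library. The targeted gene Prmt1 had 0 exon reads in all 4 libraries and 33, 18, 33 and 44 gene reads, in the order WT 1, WT 2, PRMT1-cKO 1, PRMT1-cKO 2, which every set of 4 values here follows. These values do not check the deletion, since no spliced Prmt1 read was seen in any heart. Heart muscle markers were abundant in each library, with a sum over 13 cardiomyocyte genes of 6891, 6653, 5210 and 5342 CPM of gene reads. Nppa, the natriuretic peptide gene of stressed muscle, made up 104, 153, 2320 and 2006 CPM of it, and the other 12 genes summed to 6787, 6500, 2890 and 3336.

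Collagen transcripts took a larger part of the spliced RNA of PRMT1-cKO hearts. Collagen exon reads numbered 5789, 6490, 25950 and 16472, which was 0.926, 1.19, 3.39 and 2.45% of all exon reads. Both PRMT1-cKO hearts stood above both WT hearts, and PRMT1-cKO replicate 1 stood above replicate 2. The summed collagen level was 10722 ± 1927 CPM of exon reads over the WT hearts and 30400 ± 6608 over the PRMT1-cKO hearts (SD, n = 2 per group), a ratio of 2.84. In gene reads the sum was 649 ± 89.6 and 1521 ± 435 CPM, a ratio of 2.34. In whole tissue, more cells of a type and more RNA per cell cannot be told apart.

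Tested gene by gene in gene reads by edgeR's quasi-likelihood method at a Benjamini-Hochberg adjusted threshold of 0.05 over all genes tested, 14 of 37 collagen genes with enough reads rose, 2 fell and 21 did not pass. Without WT replicate 1 the count called dropped to 9, of which 8 rose. The background was 22.7% of 13869 genes called, 11.5% rising and 11.2% falling. The other 7 members, Col10a1, Col11a2, Col2a1, Col7a1, Col8a2, Col9a1 and Col9a3, had too few reads for a test, between 0 and 16 per library, and Col10a1 had none in any library. In exon reads 13 of 19 members rose, 0 fell and 6 did not pass, against a background of 36.2% of 4756 genes called, 17.6% rising and 18.7% falling. The remaining 25 members had at most 11 exon reads in a library and were not tested, 12 of them with 0 in every library. The median log2 change (PRMT1-cKO over WT) was 0.37 over the 37 members in gene reads, beside 0.01 over all genes, and 1.03 over the 19 members in exon reads, beside 0.00 over all genes. The filter on low reads lets in genes that are high in 1 group only, which had to differ. Col9a2 in gene reads and Col11a1 and Col23a1 in exon reads reached the minimum in the PRMT1-cKO hearts alone. These medians and counts also leave out the untested members.

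Values of the 2 groups did not overlap for many members. In gene reads both PRMT1-cKO hearts stood above both WT hearts for 19 of the 37 members and below them for 3, against 30.4 and 29.0% of all genes. In exon reads the counts were 15 above and 1 below of 19, against 33.8 and 34.2%. With 2 hearts a group the smallest two-sided exact permutation p is 0.333, so single values and sums carry no test of their own and the calls come from the fit across all genes. The labels do not say whether each library is a separate animal beyond a stated n = 2, and p-values measure the spread between these libraries.

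**Figure D1:**
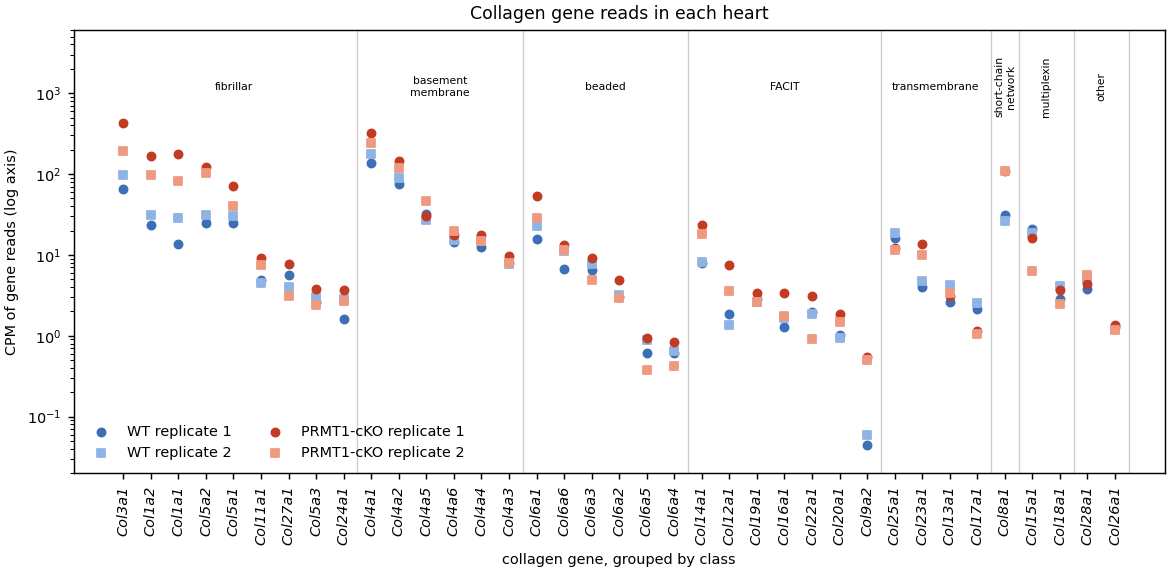
CPM of gene reads (log axis) of each collagen gene in each heart, with genes grouped by class along the horizontal axis and 1 point per library. The points of Col1a1, Col1a2, Col3a1, Col5a2 and Col8a1 in both PRMT1-cKO hearts lie above those of both WT hearts, whereas those of Col4a3 and Col6a3 overlap between the groups.

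Most of the tested fibrillar genes rose. Of 11 fibrillar genes, 9 were tested in gene reads and 6 rose, Col1a1, Col1a2, Col3a1, Col5a1, Col5a2 and Col11a1, and 0 fell. In exon reads these 6 also rose, of 7 tested. Col11a1 passed the filter on exon reads through the PRMT1-cKO hearts alone, so it had to differ there. The class median log2 change was 1.04 in gene reads and 2.20 in exon reads, the latter being the value of Col11a1 itself. The summed exon level of the class was 4690 ± 1099 CPM over the WT hearts and 19265 ± 5797 over the PRMT1-cKO hearts (SD, n = 2 per group), a ratio of 4.11.

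The bases just upstream of 2 fibrillar genes that rose, Col1a2 and Col3a1, are shown because both chains rose in both measures and are abundant; the sequence is RefSeq's (build GRCm38.p6) and starts are RefSeq's. The gene as listed in the deposited table begins further upstream for Col1a2, so the Col1a2 window lies inside that listed gene. Motifs were searched on both strands and are in capitals, and no motif overlaps another in these windows. The CCAAT box is spelled CCAAT and lies 109 bases before the start of Col1a2 (chr6:4505368-4505617, plus strand). The GC box is spelled GGGCGG and lies 205 and 188 bases before that start. The core of the Smad-binding element is spelled CAGAC, 175 bases before it. In the window of Col3a1 (chr1:45311288-45311537, plus strand) the TATA box, spelled TATAAA, lies 117 bases before the start. That window also has the Smad core 239 bases before the start and, on the opposite strand, 64 bases before it.
Col1a2: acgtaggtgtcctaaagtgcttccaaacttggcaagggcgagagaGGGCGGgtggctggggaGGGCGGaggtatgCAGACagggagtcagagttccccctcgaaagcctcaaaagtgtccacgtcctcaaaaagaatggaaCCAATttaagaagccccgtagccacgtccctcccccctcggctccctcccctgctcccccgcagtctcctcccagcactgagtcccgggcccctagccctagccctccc
Col3a1: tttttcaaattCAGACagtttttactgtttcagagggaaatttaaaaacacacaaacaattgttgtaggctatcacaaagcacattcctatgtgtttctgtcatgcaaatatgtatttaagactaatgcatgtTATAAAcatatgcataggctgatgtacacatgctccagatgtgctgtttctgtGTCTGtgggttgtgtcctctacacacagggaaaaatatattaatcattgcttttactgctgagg
Over the 250 bases before a RefSeq start, the CCAAT box occurred in 33.8% of 32851 promoters. It occurred in those of 13 of the 35 collagen genes that matched one. The TATA box occurred in 12.4% of all and for 5 of the 35, the GC box in 32.7% and for 21, and the Smad core in 42.2% and for 17. A match describes the letters only.

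Col1a1 and Col1a2, which encode the chains of type I collagen (the stiff, main collagen of fibrous tissue), both rose. Col1a1 (chr11:94936224-94953042 in GRCm38, the build of all gene positions here) had 13.7, 28.8, 176 and 81.7 CPM of gene reads and 298, 477, 3496 and 1908 exon reads. Both PRMT1-cKO hearts were above both WT hearts, and PRMT1-cKO replicate 1 was well above replicate 2. Its log2 change was 2.60 ± 0.35 (SE) in gene reads, 6.07-fold, with an edgeR adjusted p of 1.98e-05, and 2.50 ± 0.24 in exon reads. Its size depended on single hearts: the gene-read log2 change was 1.92 without PRMT1-cKO replicate 1 and 3.21 without WT replicate 2. Col1a2 (chr6:4504814-4541543) had 23.4, 31.0, 166 and 97.4 CPM of gene reads and 409, 436, 3067 and 2010 exon reads. It rose by 2.27 ± 0.28 in gene reads, 4.84-fold, with an edgeR adjusted p of 6.15e-06, and by 2.31 ± 0.15 in exon reads. Its intron reads alone gave 1.41.

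Col3a1, which encodes type III collagen (the finer, more pliant fibril partner of type I), had the highest exon reads per kilobase of the fibrillar chains in every heart. Col3a1 (chr1:45311538-45349706) had 65.7, 98.4, 428 and 194 CPM of gene reads and 1339, 1567, 8319 and 4254 exon reads. PRMT1-cKO replicate 1 was again the highest library, and the groups did not overlap. The log2 change was 1.92 ± 0.33 in gene reads, 3.79-fold, with an edgeR adjusted p of 0.000255, and 1.82 ± 0.19 in exon reads. Without PRMT1-cKO replicate 1 the gene-read value was 1.21.

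Col5a1 and Col5a2 encode type V collagen, which starts fibrils and limits their width. Col5a2 (chr1:45374321-45503282) rose by 2.03 ± 0.24 on the log2 scale of gene reads, from 24.8 and 30.9 to 123 and 104 CPM, with an edgeR adjusted p of 3.91e-06. Col5a1 (chr2:27886425-28039514) rose by 1.04 ± 0.25, from 24.8 and 29.9 to 71.7 and 40.7 CPM, with an edgeR adjusted p of 0.00459. In exon reads the 2 log2 changes were 2.40 ± 0.19 and 1.47 ± 0.18. Without WT replicate 1, Col5a1 in gene reads lost its call, with an edgeR adjusted p of 0.134 (range over alternatives 1.64e-08 to 0.134), and was called in exon reads.

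Col11a1, a chain of type XI collagen best known from cartilage fibrils, had far fewer reads. Its gene reads numbered 110, 76, 187 and 179, and its exon reads 5, 2, 17 and 22. It rose by 0.83 ± 0.21 in gene reads, 1.78-fold, with an edgeR adjusted p of 0.00731, and by 2.20 ± 0.57 in exon reads. Leaving out WT replicate 1 ended its gene-read call (edgeR adjusted p = 0.0613), as did leaving out WT replicate 2 (0.108), within a range over alternatives of 0.000246 to 0.108. Its exon-read value was 2.85 without WT replicate 1, and the exon-read call ended without WT replicate 2 (0.0675), without PRMT1-cKO replicate 2 (0.106) and by DESeq2 (0.0644). The cartilage and bone markers gave a sum over 9 genes of 2.83, 2.51, 3.04 and 2.59 CPM, 0 of the 2 tested rose or fell, and Bglap, the osteocalcin gene, had no read.

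Of the other fibrillar genes, Col5a3, Col24a1 and Col27a1 did not pass in gene reads. Col27a1 had 5.58, 4.03, 7.80 and 3.14 CPM, with the groups overlapping. Col5a3 had a log2 change of 0.13 ± 0.28 in gene reads and -0.16 ± 0.44 in exon reads. Col2a1, the main collagen of cartilage, had 3, 2, 8 and 5 gene reads and was not tested.

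Basement membrane genes had smaller changes. All 6 were tested in gene reads and 2 rose, Col4a1 and Col4a2; of 5 tested in exon reads 3 rose, those 2 and Col4a3. The class summed exon level was 5232 ± 752 CPM over the WT hearts and 9418 ± 414 over the PRMT1-cKO hearts (SD, n = 2 per group), a ratio of 1.80. Col4a1 and Col4a2 encode the chains of the common type IV collagen network and lie head to head, their annotated ends overlapping by 22 bases on chromosome 8 (chr8:11312805-11312826, build GRCm38.p6). Those shared bases lie inside both annotated genes and are given on the plus strand, with a GC box (GGGCGG) in capitals.
Col4a1 and Col4a2: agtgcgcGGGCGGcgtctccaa

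Col4a1 was the collagen with the most exon reads per kilobase of exon in both WT hearts. Its exon reads numbered 2094, 2216, 5291 and 4245, and those of Col4a2 697, 759, 1680 and 1391. Both PRMT1-cKO hearts were above both WT hearts for each gene. In exon reads Col4a1 rose by 0.88 ± 0.12, 1.84-fold, with an edgeR adjusted p of 2.76e-05, and Col4a2 by 0.81 ± 0.13, 1.75-fold, with an edgeR adjusted p of 0.000167. In gene reads the log2 changes were 0.86 ± 0.27 and 0.69 ± 0.24, with edgeR adjusted p of 0.0260 and 0.0435. Leaving out 1 heart ended both gene-read calls in 3 of 4 cases. The edgeR adjusted p was 0.452 and 0.524 without WT replicate 1, 0.164 and 0.255 without WT replicate 2, and 0.0778 and 0.105 without PRMT1-cKO replicate 1. In intron reads alone it was 0.0808 and 0.103. Over all alternatives it ranged from 4.67e-06 to 0.452 for Col4a1 and from 0.000211 to 0.524 for Col4a2, and the exon-read calls held in every one.

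The other type IV chains are the rarer ones, and Col4a3, Col4a4 and Col4a5 are those of the kidney filter and inner ear basement membranes. Col4a3 had 46, 43, 88 and 91 exon reads and rose in exon reads by 0.75 ± 0.24, with an edgeR adjusted p of 0.020, whereas its gene reads gave 0.16 ± 0.20. The call depended on single hearts: the edgeR adjusted p was 0.129 without WT replicate 1, 0.0680 without WT replicate 2 and 0.0655 without PRMT1-cKO replicate 2, DESeq2 gave 0.124, and the range over alternatives was 0.00753 to 0.129. Its head-to-head neighbour Col4a4, 71 bases away, had 45, 59, 80 and 69 exon reads and a log2 change of 0.25 ± 0.25. Col4a6 had 24, 17, 44 and 44 exon reads and did not pass, with an edgeR adjusted p of 0.0547. Col4a5 had 32.5, 26.7, 30.5 and 46.0 CPM of gene reads but 1, 1, 2 and 2 exon reads, so its gene reads are nearly all intron reads. Endothelial markers were lower in the PRMT1-cKO hearts: their sum over 13 genes was 329, 337, 267 and 283 CPM of gene reads, with 1 risen and 6 fallen, and its part in the type IV values was not tested. Of 17 other basement membrane protein genes tested in gene reads, such as laminins, 1 rose and 1 fell, against a background of 11.5 and 11.2%. In exon reads 3 of 12 tested rose and 1 fell, against 17.6 and 18.7%. The 3 were Nid1 with a log2 change of 0.80 ± 0.15, Nid2 with 0.65 ± 0.22 and Lamc1 with 0.42 ± 0.13. Sparcl1 fell, with -0.41 ± 0.13.

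Type VI collagen forms beaded filaments that link basement membranes to fibrils, and 1 of its 6 tested chains rose in gene reads. Col6a1 had 324, 353, 1047 and 638 exon reads and 15.8, 22.5, 53.7 and 28.4 CPM of gene reads. It rose by 1.10 ± 0.26 in gene reads, 2.15-fold, with an edgeR adjusted p of 0.00420, and by 1.03 ± 0.17 in exon reads. The gene-read call ended without WT replicate 1 (edgeR adjusted p = 0.132) and in intron reads alone, where the log2 change was 0.34 (0.512), in a range over alternatives of 1.09e-09 to 0.512; the exon-read call held. The other 5 members of the class did not pass. Col6a2, a partner chain of Col6a1, had 32, 17, 47 and 21 exon reads and a log2 change of 0.21 ± 0.39. Col6a3, the partner chain of both, had 0, 0, 1 and 5 exon reads beside 146, 131, 189 and 117 gene reads, so it was hardly counted as spliced RNA here. Col6a6 had 6.78, 11.2, 13.4 and 11.5 CPM of gene reads, with 1, 3, 0 and 0 exon reads.

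FACIT genes, whose proteins decorate fibril surfaces, held 3 risen of 7 tested in gene reads and 0 fallen. Col14a1, which helps organise fibril packing, had 177, 139, 476 and 435 gene reads and 19, 7, 67 and 68 exon reads. It rose by 1.38 ± 0.20, 2.60-fold, with an edgeR adjusted p of 5.28e-05, and by 2.12 ± 0.36 in exon reads (2.87 without WT replicate 1). Col12a1, a related tissue-stress collagen, had 42, 23, 152 and 85 gene reads and rose by 1.75 ± 0.33, 3.36-fold, with an edgeR adjusted p of 0.000543. Without PRMT1-cKO replicate 1 that change was 1.10. Its exon reads, 1, 1, 10 and 0, were too few for a test, so the rise rests on intron reads.

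Col9a2, known from cartilage, had 1, 1, 11 and 12 gene reads and 0, 0, 10 and 11 exon reads. It passed the filter on low reads through the PRMT1-cKO hearts alone, so it had to differ. The ratio of its summed gene reads was 10.3, with a 95% exact interval of 2.55 to 90.2 that covers counting error only. In exon reads it was at least 2.94-fold higher than a floor of 3 reads in each WT library. The gene-read call, with an edgeR adjusted p of 0.00582, ended without WT replicate 1 (0.198), without WT replicate 2 (0.102) and by DESeq2 (0.0815), and ranged down to 0.00202. Its partner chains Col9a1 and Col9a3 had 5 to 10 and 6 to 7 gene reads per library.

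Transmembrane genes moved in both directions. Col23a1, a membrane-anchored collagen, had 3.99, 4.74, 13.5 and 9.83 CPM of gene reads and 3, 4, 40 and 18 exon reads. It rose by 1.42 ± 0.22, 2.68-fold, with an edgeR adjusted p of 9.70e-05, and by 2.74 ± 0.56 in exon reads. Col17a1, which anchors epithelial cells in skin, fell by 1.10 ± 0.32 on the log2 scale from 48 and 44 to 23 and 25 gene reads, with an edgeR adjusted p of 0.0169. Col25a1, known from nerve and muscle innervation, fell by 0.56 ± 0.19 from 365 and 315 to 246 and 272 gene reads, with an edgeR adjusted p of 0.0422. Both genes had 0 exon reads in every library, so their falls are changes of intron reads and say nothing of spliced RNA. The Col17a1 call ended by DESeq2 (adjusted p = 0.0954) and without WT replicate 2 (0.128), in a range over alternatives of 0.00428 to 0.128. Among the alternatives that ended the Col25a1 call were DESeq2 (0.107), no filter on low counts (0.0683), and leaving out WT replicate 1 (0.175) or WT replicate 2 (0.365), in a range of 0.00416 to 0.365. Nerve and Schwann cell markers were higher in the PRMT1-cKO hearts, at 31.5, 33.0, 86.9 and 115.6 CPM summed over 7 genes, with 3 of 4 tested risen, and their part in the Col25a1 value was not tested. Col13a1, found at neuromuscular junctions, did not pass.

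Outside the 5 main classes, Col8a1 rose. It encodes a chain of the short-chain network collagen made by vessel and heart cells. Col8a1 (chr16:57624258-57754737) had 702, 443, 2197 and 2576 gene reads and 24, 14, 180 and 110 exon reads, with the groups far apart. The log2 change was 1.92 ± 0.23 in gene reads, 3.78-fold, with an edgeR adjusted p of 5.29e-06, and 2.66 ± 0.28 in exon reads. Col15a1, a multiplexin of muscle and vessel basement membranes, had 466, 319, 334 and 149 gene reads and 44, 40, 45 and 22 exon reads. It did not pass in gene reads, with a log2 change of -0.81 ± 0.29 and an edgeR adjusted p of 0.0526, but was called as fallen when PRMT1-cKO replicate 1 was left out (1.01e-08) and when WT replicate 2 was (0.0296). It stayed short of the threshold in 5 of 12 alternatives, with a range of 1.01e-08 to 0.531. PRMT1-cKO replicate 2 was its lowest library. Col18a1 and Col28a1 did not pass either. The 13 members that did not pass and had a mean under 5 CPM ranged in log2 change from -0.20 to 0.81.

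**Figure D2:**
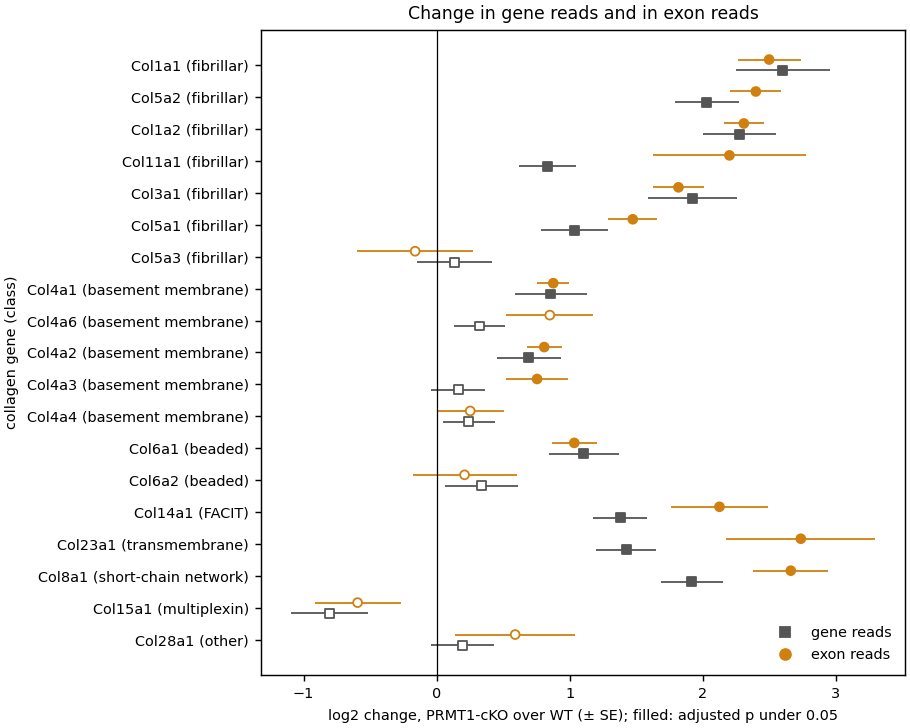
Log2 change (PRMT1-cKO over WT, horizontal axis, with SE) of collagen genes in gene reads (squares) and in exon reads (circles), filled where the edgeR adjusted p was under 0.05. Fibrillar chains such as Col1a1 (2.60 and 2.50) and Col5a2 (2.03 and 2.40) lie far to the right in both measures, and Col4a1 (0.86 and 0.88) lies nearer to 0.

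Exon reads and intron reads were then compared within each gene. The exon change exceeded the intron change for 2 of 19 members and fell below it for 0, against a background of 10.8% of 4255 genes called, 4.58% with the exon change above and 6.18% below. The 2 were Col1a2, with a difference in log2 change of 0.85 ± 0.21 and an edgeR adjusted p of 0.0132, and Col5a1, with 0.82 ± 0.20 and 0.0149. Neither call held when WT replicate 1 (edgeR adjusted p = 0.218 and 0.225) or WT replicate 2 (0.190 and 0.222) was left out, and without a PRMT1-cKO heart each held (down to 0.00571 and 0.000949). The count of 2 became 0 without either WT heart and 4 without either PRMT1-cKO heart. The share of gene reads that were exon reads differed widely between members: it was 97.6% for Col1a1, 93.6% for Col3a1, 74.4% for Col4a1 and 5.54% for Col8a1. These genes have 55, 63, 54 and 4 exons. Since exon reads nearly all cross a junction, the share also depends on the number of exons and is not a measure of splicing.

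The mix of collagen transcripts shifted towards the fibrillar chains. Fibrillar chains were 43.5 ± 2.43% of the collagen exon reads of WT hearts and 62.8 ± 5.42% of those of PRMT1-cKO hearts, and basement membrane chains 49.0 ± 1.79% and 31.6 ± 5.50% (SD, n = 2 per group). Beaded chains went from 5.96 ± 0.297% to 4.13 ± 0.133%. For each of these 3 classes the groups did not overlap. Col4a1, Col3a1, Col4a2, Col1a1, Col1a2, Col6a1, Col5a1 and Col5a2 together held 95.1, 96.1, 97.3 and 96.8% of collagen exon reads. Per kilobase of exon (the deposited RPKM, compared within a library), Col4a1 led in both WT hearts with 12.0 and 15.0, followed by Col3a1 with 5.35 and 7.36 and Col4a2 with 4.13 and 5.28. In PRMT1-cKO replicate 1 Col3a1 led with 46.3 and Col4a1 followed with 42.4, and in replicate 2 the order was reversed, with 23.2 and 33.3. Col1a1 stood behind Col6a1 in both WT hearts and ahead of it in both PRMT1-cKO hearts, with 29.1 and 15.6. Exon reads nearly all cross a junction, and members have from 3 to 132 exons. These ranks between genes therefore also depend on the number of exons and do not measure which transcript is the most abundant.

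**Figure D3:**
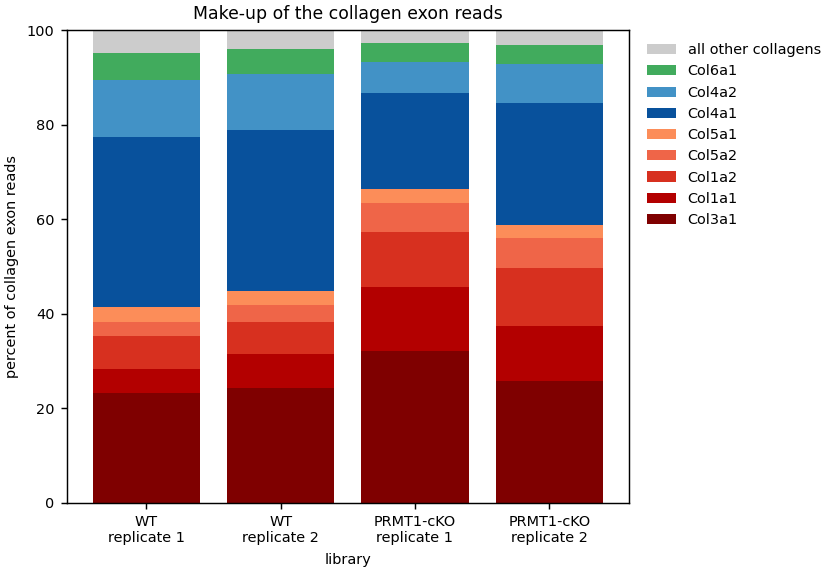
Percent of collagen exon reads (vertical axis) held by the leading chains in each of the 4 libraries, as stacked bars with all other collagens in grey. The share of fibrillar chains is larger in the PRMT1-cKO bars, 62.8% on average against 43.5%, and that of Col4a1 and Col4a2 is smaller.

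Ratios between chains within a library do not depend on the scaling of libraries. The 9 pairs were chosen after their values were seen and are given as description, with no test. The ratio of Col4a1 to Col4a2 exon reads lay between 2.92 in WT replicate 2 and 3.15 in PRMT1-cKO replicate 1, and both PRMT1-cKO values were slightly above both WT values. The ratio of Col1a1 to Col1a2 was 0.729, 1.09, 1.14 and 0.949, with the groups overlapping. In contrast, the ratio of Col3a1 to Col1a1 was 4.49, 3.29, 2.38 and 2.23, lower in both PRMT1-cKO hearts. The ratio of Col5a2 to Col5a1 was 0.949, 1.22, 1.98 and 2.25, higher in both. That of Col1a1 to Col4a1 was 0.142, 0.215, 0.661 and 0.449. Col3a1 to Col1a2 gave 3.27, 3.59, 2.71 and 2.12, and Col3a1 to Col5a2 gave 7.97, 6.64, 5.35 and 4.09. Col4a3 to Col4a4 gave 1.02, 0.729, 1.1 and 1.32, and Col6a1 to Col6a2 gave 10.1, 20.8, 22.3 and 30.4. Among genes that are neighbours, Col3a1 and Col5a2 lie tail to tail 24614 bases apart on chromosome 1 and both rose, while Col6a1 rose and Col6a2, 85161 bases away on chromosome 10, did not pass.

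**Figure D4:**
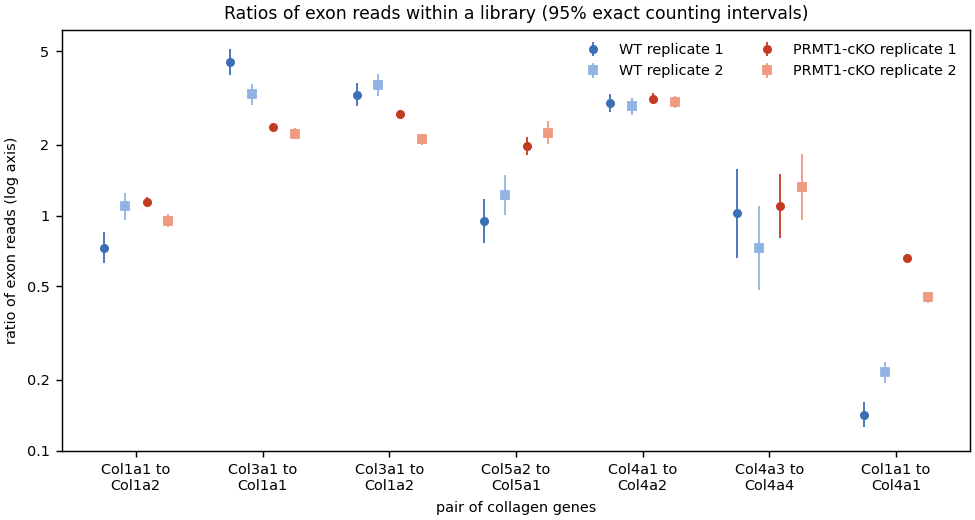
Ratio of exon reads of collagen gene pairs (log axis) in each library, with 95% exact counting intervals as bars. Col4a1 to Col4a2 stays between 2.92 and 3.15, Col3a1 to Col1a1 is lower in both PRMT1-cKO hearts (2.38 and 2.23) than in both WT hearts (4.49 and 3.29), and Col5a2 to Col5a1 is higher.

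Markers of the cells that make collagen were mixed. Of 10 tested fibroblast markers 6 rose and 1 fell in gene reads, and the sum over 12 of them was 261, 322, 338 and 315 CPM, with overlapping groups and no read for Cd248. Gsn alone supplied 224, 267, 268 and 241 CPM of that sum, and the other 11 genes gave 37.8, 55.6, 70.1 and 73.6, higher in both PRMT1-cKO hearts. Tcf21 and Islr, among the 6 risen, passed the filter on low reads through the PRMT1-cKO hearts alone. Of 9 myofibroblast markers 5 rose and 1 fell, with sums of 72.3, 87.4, 134 and 89.8 CPM. The 5 were Comp, Postn, Cilp, Cthrc1 and Fmod, of which Cilp, Cthrc1 and Fmod passed that filter through the PRMT1-cKO hearts alone and so had to differ. Acta2, the smooth muscle actin gene that marks contractile myofibroblasts, was at 42.6, 57.0, 38.3 and 30.6 CPM of gene reads and did not pass, but fell in exon reads by 0.56 ± 0.13 (edgeR adjusted p = 0.00308). Leukocyte markers rose in 8 of 9 tested. Cd68 and S100a8, among these 8, passed that filter through the PRMT1-cKO hearts alone and so had to differ. Cardiomyocyte markers fell in 9 of 13 and rose in 2. The background in gene reads was 11.5% risen and 11.2% fallen. How far these lists take part in the collagen values was not tested.

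Genes that handle collagen after it is made were then counted in gene reads. Of 27 tested genes for chain assembly and processing, 6 rose, 5 fell and 16 did not pass. P4hb, a subunit of the enzyme that hydroxylates prolines of the helix, rose by 1.21 ± 0.22, Crtap by 0.99 ± 0.27 and Adamts2, which trims the procollagen ends, by 1.35 ± 0.21, and Colgalt2, a collagen glycosyltransferase, fell by 1.59 ± 0.20. Serpinh1, the collagen chaperone HSP47, was named after its values were seen: it fell by 0.81 ± 0.27 (edgeR adjusted p = 0.0356) in gene reads, 79, 68, 51 and 42, while its few exon reads were 2, 1, 7 and 6.

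Crosslinking and fibril-binding genes rose in 15 of 20 tested, with 1 fallen, and had a median log2 change of 1.49. Of the 15, Lox, Loxl2 and Fmod passed the filter on low reads through the PRMT1-cKO hearts alone and so had to differ. Loxl3, an enzyme that crosslinks fibrils, rose by 2.33 ± 0.27, Fn1 (fibronectin) by 2.65 ± 0.23 and Thbs1 (thrombospondin) by 3.16 ± 0.28. The related crosslinking enzyme genes Lox and Loxl2 had 9, 4, 34 and 53 and 3, 1, 56 and 38 gene reads. In the list for collagen breakdown and its control, 9 of 13 tested rose and 1 fell, with a median of 1.75. The risen genes were 6 degrading enzymes, Mmp2, Mmp3, Mmp8, Mmp9, Mmp14 and Ctsk, and 3 inhibitors of matrix proteases, Timp1, Timp2 and Reck. The fallen gene was Mmp15, with 282, 189, 72 and 52 gene reads and a log2 change of -2.06 ± 0.24. Ctsk, the collagen-cutting cathepsin K, rose by 3.10 ± 0.32. Mmp3, Mmp8, Mmp9 and Timp1 passed the filter on low reads through the PRMT1-cKO hearts alone and so had to differ. The medians of both lists include such genes. Mmp3 had 3, 8, 206 and 265 gene reads, Mmp8 had 1, 0, 16 and 14, and Mmp9 had 3, 5, 160 and 71. Timp1 had 4, 3, 37 and 17. Collagen receptors rose in 4 of 10 tested and fell in 1. Itga11, an integrin subunit for fibrillar collagen, rose by 1.17 ± 0.26. TGF-beta pathway genes rose in 8 of 20 and fell in 3. Ctgf, a matrix-associated growth factor gene, rose by 3.15 ± 0.26 and Tgfb2, a TGF-beta ligand, by 1.33 ± 0.20. All adjusted p-values behind these calls are from edgeR over all genes tested. The background was the same 11.5% risen and 11.2% fallen.

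**Figure D5:**
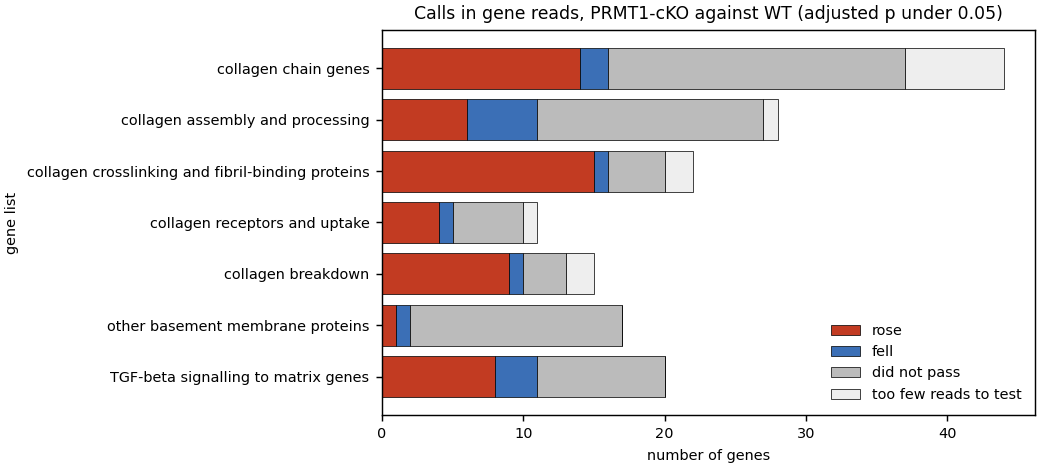
Number of genes of each pathway list (horizontal axis) that rose, fell, did not pass or had too few reads for a test in gene reads, edgeR adjusted p under 0.05. Crosslinking and fibril-binding genes (15 of 20 tested rose) and the genes of the breakdown list, inhibitors included (9 of 13), have the longest risen bars for their size, and other basement membrane genes have the shortest, with 1 risen. Of those 15 and 9, 3 and 4 passed the filter on low reads through the PRMT1-cKO hearts alone and so had to differ.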

How the data were processed

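Total RNA of 4 hearts was depleted of ribosomal RNA and made into libraries with a SOLiD kit, per the labels' protocols. The build is GRCm38 per the submitters' processing notes. The sources used here do not give the aligner, the counter or whether strand was used. The deposited counts of gene reads ("expression values") and exon reads were used as tables of raw counts, and the deposited RPKM values equal exon reads per kilobase of exon, scaled to the library's gene reads, in 38980 of 38980 values within 0.001 (relative). Since strand is not stated, reads shared by overlapping genes are ambiguous, and 28 of the 44 members overlap another gene of GENCODE M21, 5 a protein-coding one. For gene reads and, separately, exon reads, genotype was fitted alone by edgeR 4.0.16 (R 4.3.3) with TMM factors, filterByExpr (minimum count 10, minimum total 15) and the two-sided quasi-likelihood test, and p-values were adjusted by Benjamini-Hochberg over all genes. Exon and intron changes were compared by their interaction in 1 model over the 8 columns. SE is the log2 change over the square root of F. DESeq2 1.42.0 was an alternative. The classes and gene lists were chosen with earlier results of these data known. Members past the adjusted threshold of 0.05 or with a mean of at least 5 CPM of gene reads are given with every library's value, and up to 5 genes per pathway list, by size of change. Sequences are from RefSeq. Scripts were tested on simulated data. The replicate numbers did not pair the libraries. Figures used matplotlib 3.10.9. The result for 1 of the genes that this naming rule selects is not reported here.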

Additional observations from a re-analysis of the deposited data

How the results depend on the processing

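Collagen genes called in gene reads numbered 16. The count fell to 9 without WT replicate 1, and was 9 to 18 when each heart was left out in turn; the cause was not tested. The count of 13 in exon reads was 11 to 14 under every alternative. The 2 genes with differing exon and intron change became 0 without either WT heart and 4 without either PRMT1-cKO heart. With a replicate block gene-read calls were 14 and exon-read calls 13 (Col4a1, Col4a2 and Col25a1 were then not called, at edgeR adjusted p of 0.180, 0.220 and 0.129, and Col15a1 was, at 0.00493), and with the crossed pairing, chosen after seeing the data, gene-read calls were 19. Of the 16 calls in gene reads, 8 held under every alternative run for them (Col1a1, Col1a2, Col3a1, Col5a2, Col8a1, Col12a1, Col14a1 and Col23a1), and of the 13 in exon reads 11 did, all but Col11a1 and Col4a3. Directions turned for genes that did not pass. Col27a1 ranged from -0.659 to 0.661 over hearts left out in turn (-0.0606 without WT replicate 2). Col4a3 in gene reads ranged from -0.0149 to 0.275, and was -0.231 in intron reads. Col6a3 ranged from -0.553 to 0.377 (0.105 without WT replicate 2) and was 0.0142 at minimum count 50. Col4a4 in exon reads ranged from -0.0480 to 0.541. With 2 hearts a group, depth in exon reads limits most members: 25 of 44 had too few for a test.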
